A study of Mus musculus with 4 samples.

Results

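Splicing factors and proteins of the small nuclear ribonucleoproteins (snRNPs) were followed by gene symbol in RNA sequencing data from sorted bone marrow monocytes of aged and young mice. Members were all genes of the deposited tables named Srsf with a number, or beginning with Hnrnp or Snrp, or named Sf3a or Sf3b with a digit. Srsf2, Sf3b1 and pseudogene names were left out. This gave 50 genes of the 31017 in the tables, namely 20 Hnrnp, 12 Snrp, 10 Srsf and 8 Sf3 genes. The rule went by symbol alone, and it was set with earlier results of these data known. The aged group held 2 libraries from mice of 18 months and the young group 2 libraries from mice of 3 months. All mice were wild type C57BL/6, all libraries were tagged with atherosclerosis as the disease, and the cells were monocytes isolated from bone marrow by flow cytometry. Whether each library stands for its own animal is not stated in the labels, so the p-values below reflect spread between libraries that could be technical replicates.

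Introns are removed from pre-messenger RNA by the spliceosome, which assembles anew on each intron from the U1, U2, U4, U5 and U6 snRNPs. A ring of 7 Sm proteins surrounds the RNA of most snRNPs, and the SF3a and SF3b complexes anchor the U2 snRNP at the branch point. SR proteins, encoded by Srsf genes, bind exons and mostly favour their inclusion, whereas many heterogeneous nuclear ribonucleoproteins (hnRNPs) bind the same transcripts and often oppose it. Several splicing factor genes hold poison exons whose inclusion sends their own transcript to nonsense-mediated decay. Gene-level counts add such transcripts to the productive ones and do not separate them.

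Library totals ranged from 20159129 to 34278754 counts, with young replicate 1 the deepest. The members together took 0.892% and 0.892% of the counts in the aged libraries and 0.889% and 0.884% in the young ones. The monocyte markers Lyz2 and Csf1r were both present. Lyz2 averaged 34770 ± 96.4 CPM (counts scaled to equal library sizes, with TMM factors) in aged and 33970 ± 1730 CPM in young libraries (SD, n = 2 per group). Csf1r averaged 1739 ± 40.3 CPM in aged against 1388 ± 6.21 CPM in young libraries and rose (edgeR adjusted p = 0.00429). Markers of other states and cell types moved with age. In a list of 12 non-classical monocyte markers 9 rose, and their summed level was 2002 and 1864 CPM in the aged against 1454 and 1377 CPM in the young libraries. Of 17 immediate early and heat shock genes 13 rose, with sums of 5188 and 5322 in aged against 3039 and 3066 CPM in young libraries. Of 10 tested B-lineage markers 6 rose, with sums of 1088 and 1087 in aged against 723.9 and 730.9 CPM in young libraries, and Pax5 was too low to test. Of 11 classical monocyte markers 6 fell and 1 rose, with sums of 19050 and 19070 in aged against 22400 and 22660 CPM in young libraries. Of 18 monocyte identity genes 5 rose and 1 fell (sums of 47910 and 47430 in aged against 44690 and 46950 CPM in young libraries), of 10 dendritic cell markers 3 rose (339.7 and 350.3 in aged against 301.1 and 306.5 CPM in young libraries) and of 11 neutrophil markers 2 rose and 3 fell (30670 and 31230 in aged against 31920 and 30670 CPM in young libraries). Of 8 erythroid markers 1 rose (382 and 392.7 in aged against 385.9 and 347.4 CPM in young libraries), and none of 9 T and NK cell markers passed (48.17 and 46.75 in aged against 50.16 and 56.89 CPM in young libraries; 1 at an unadjusted p under 0.05). No gene of these lists was at 0 in all libraries. The part of these markers in the changes below was not tested, and in bulk samples fewer cells of a type and less RNA per cell cannot be told apart.

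Of the 50 members, 48 passed the low-count filter and entered the test over 12035 genes. In aged monocytes 3 rose and 3 fell at an adjusted p under 0.05 by the quasi-likelihood test of edgeR. The rises were those of the SR genes Srsf11, Srsf4 and Srsf9. The falls were those of Snrpg, a Sm ring protein, Sf3b6, a subunit of SF3b, and Hnrnpa3, an hnRNP of the A/B family. Over all genes tested, 5.77% passed, 2.87% higher and 2.89% lower in aged monocytes. Among the 48 members 12.5% passed, 6.25% in each direction. Of the 48 members 38 averaged at least 50 CPM, as did 3986 of all genes tested. Among genes at that level 10% passed (4.26% higher, 5.75% lower), and 5 of the 38 members (13.2%) did.

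**Figure D1:**
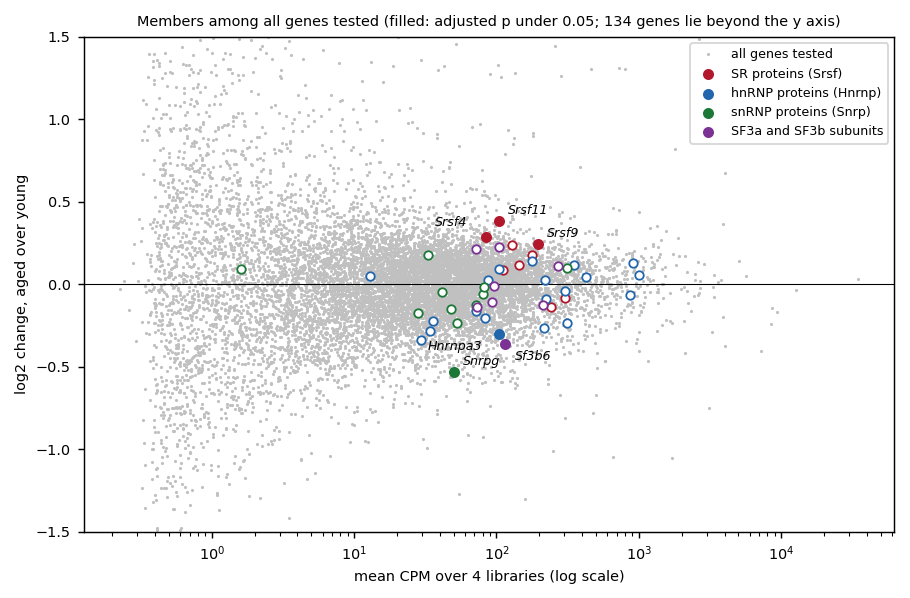
Log2 change, aged over young, against the mean level in CPM over the 4 libraries (log scale) for all genes tested (grey) and the members, coloured by family and filled where the edgeR adjusted p was under 0.05. The members lie between log2 changes of -0.53 and 0.38, and 134 other genes lie beyond the limit of 1.5 on the vertical axis.

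Changes in the family were small. The median log2 change of the 48 tested members was -0.03, against -0.0044 for all genes tested, and the median size without sign was 0.13 against 0.15. In 17 of the 48 members the log2 change lay between -0.1 and 0.1. Groups did not overlap in 36 of the 48 members (75%), 16 higher and 20 lower in the aged libraries, against 51.6% of all genes tested. The median standard error was 0.0718 in members and 0.1162 in all genes tested. Members were thus measured more tightly, and non-overlap was not compared among genes of like level, here or below. The SR family had a median log2 change of 0.18, with 7 members above 0 and 2 below. The medians were -0.05 for the Hnrnp genes (9 above 0, 11 below), -0.06 for the Snrp genes (3 and 8) and -0.06 for the Sf3 genes (3 and 5). Summed over the family, SR genes stood at 1513 and 1565 CPM in aged libraries, against 1430 and 1454 CPM in young ones. The sums of Hnrnp genes were 5555 and 5557 CPM in aged and 5527 and 5632 CPM in young libraries, so those groups overlapped.

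**Figure D2:**
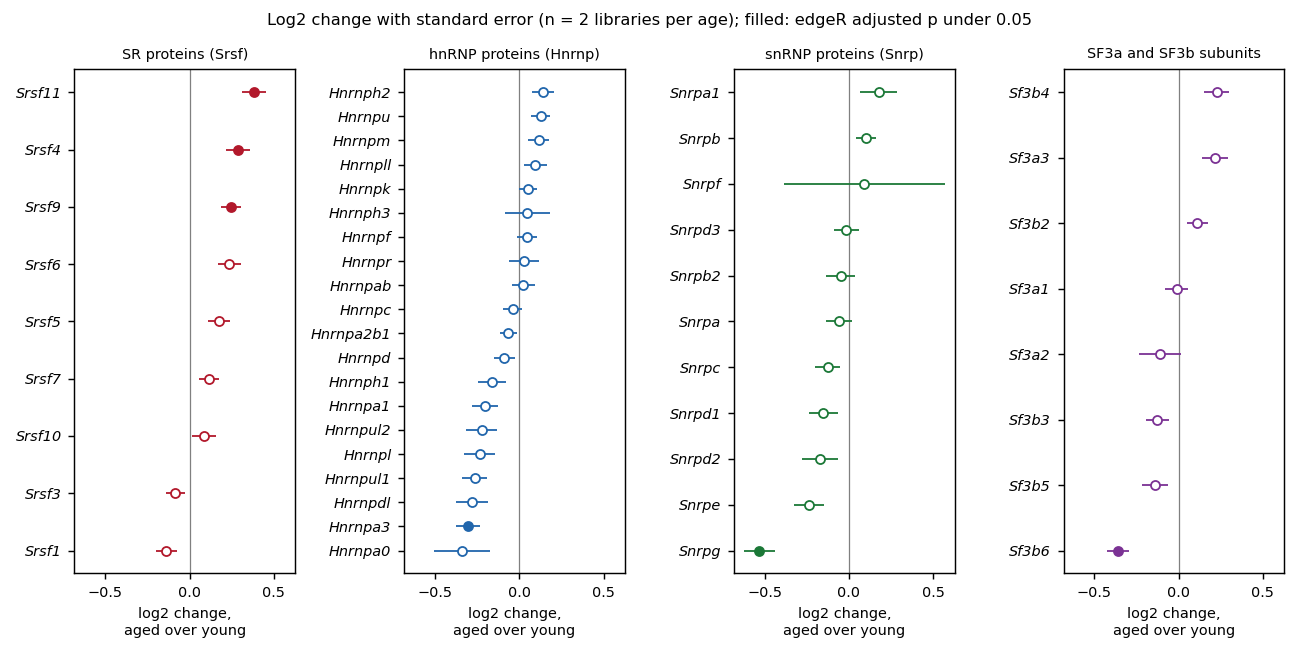
Log2 change, aged over young, with its standard error (n = 2 libraries per age) for the 48 tested members in their 4 families, ordered by size. Filled points passed the edgeR test at an adjusted p under 0.05: Srsf11, Srsf4 and Srsf9 to the right of 0, and Hnrnpa3, Snrpg and Sf3b6 to the left.

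SR genes held all 3 rises. Srsf11 encodes an SR-related protein known to bind the large subunit of U2AF, the factor of the 3′ splice site, and lies on chromosome 3, 158010473 to 158036639 (GRCm38). It stood at 114 and 120.3 CPM in aged libraries, against 86.63 and 93.12 CPM in young ones. Both aged libraries exceeded both young ones, and the log2 change was 0.38 ± 0.0725 (SE, n = 2 per group; edgeR adjusted p = 0.0132), a fold of 1.30. Srsf4 encodes an SR protein with a long arginine-serine domain (chromosome 4, 131873617 to 131901706). Its levels were 91.0 and 94.01 CPM in aged against 75.43 and 76.11 CPM in young monocytes, again without overlap. The log2 change was 0.29 ± 0.0711 (edgeR adjusted p = 0.0431). Of the annotated exonic bases of Srsf4, 43.0% also belong to Gm12992 on the opposite strand, and with the strand setting of the counting not given in the sources used here, reads of the pair may be shared. Srsf9 encodes an SR protein with a short arginine-serine domain (chromosome 5, 115327177 to 115333080). It had 212.8 and 213.5 CPM in aged libraries, against 174.5 and 185.5 CPM in young ones, which did not overlap. The change on the log2 scale was 0.24 ± 0.0606 (edgeR adjusted p = 0.0436).

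The other tested SR genes did not pass, although their groups did not overlap either. Nearest to the threshold was Srsf6, an SR protein known to bind exonic enhancers, with 138.8 and 138.4 CPM in aged against 122.7 and 112.5 CPM in young libraries (log2 change 0.24 ± 0.0688, edgeR adjusted p = 0.0751). Srsf5 gave 0.18 ± 0.0672 (0.166), Srsf7, which also serves messenger RNA export, 0.11 ± 0.0612 (0.315), and Srsf10, a splicing repressor after heat shock, 0.0855 ± 0.0707 (0.536). The sign was opposite in Srsf1, the founding SR protein, and in Srsf3, the smallest one. Srsf1 had 221.4 and 238.8 CPM in aged against 247 and 259.8 CPM in young libraries (-0.14 ± 0.0627, adjusted p = 0.237). Srsf3 had 289.9 and 298.8 CPM in aged and 318.8 and 305.1 CPM in young libraries (-0.0842 ± 0.0567, adjusted p = 0.434). Thus 7 of the 9 tested SR genes were higher in both aged libraries and 2 were lower, where 3112 of all 12035 genes tested were higher without overlap and 3093 lower, and 6 of the 9 did not pass. Srsf12, an SR-related repressor, was not tested, with 3 and 1 counts in the aged and 0 and 4 counts in the young libraries. By counting error alone, the 0 in young replicate 1 allows 3 counts, or 0.0868 CPM.

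**Figure D3:**
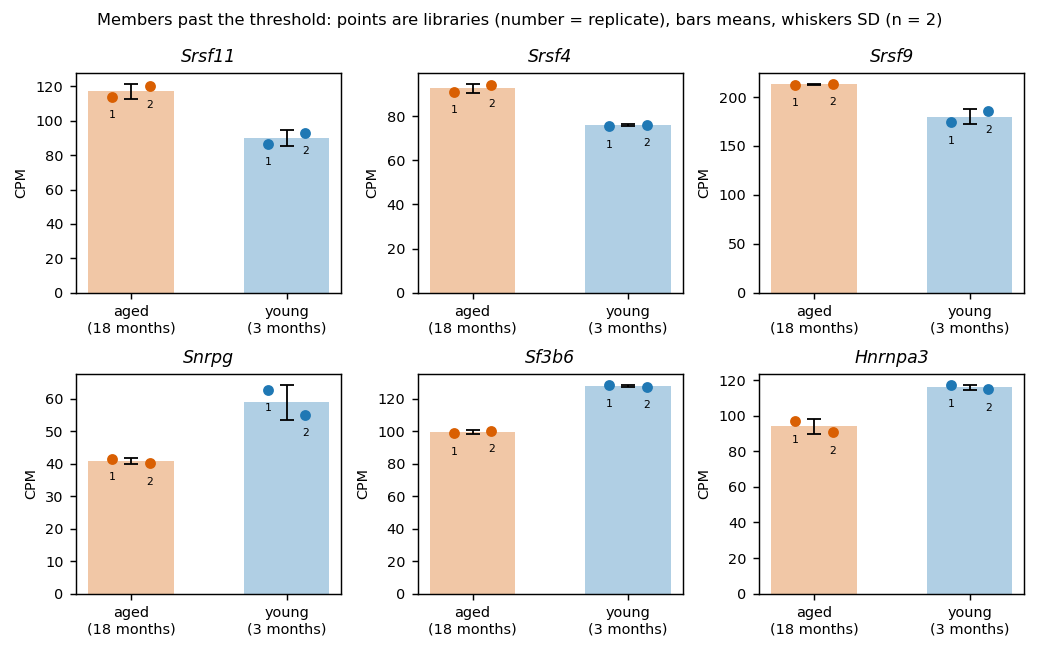
CPM of the 6 members that passed the test, in aged (18 months) and young (3 months) libraries; points are libraries with their replicate number, bars means and whiskers SD (n = 2). Aged libraries lie above young ones for Srsf11, Srsf4 and Srsf9 and below them for Snrpg, Sf3b6 and Hnrnpa3.

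Among Sm ring genes, Snrpg fell in aged monocytes. It encodes SmG (chromosome 6, 86371304 to 86379328), and it had 41.55 and 40.17 CPM in aged libraries, against 62.78 and 55.14 CPM in young ones. The groups did not overlap, and the log2 change of -0.53 ± 0.0921 (edgeR adjusted p = 0.00867), a fold of 0.692, was the largest among the members. Near-identical sequence (at least 95% identity over at least 100 bases) at 4 other annotated loci covered 29.9% of the Snrpg transcript. Its counts are therefore uncertain, by a share that was not tested. The 2 of these loci that the tables list held, as totals of whole loci, 147 and 102 counts in aged and 252 and 113 counts in young libraries. Snrpg itself held 1042 and 873 counts in aged and 2169 and 1099 counts in young libraries. Next came Snrpe, encoding SmE, with 49.37 and 47.21 CPM in aged and 59.65 and 54.08 CPM in young libraries (-0.24 ± 0.087, adjusted p = 0.147). SmD1 and SmD2 had the same sign without passing, with log2 changes of -0.15 ± 0.0872 for Snrpd1 (adjusted p = 0.353) and -0.17 ± 0.106 for Snrpd2 (adjusted p = 0.383). Snrpd3 averaged 80.98 ± 2.27 CPM in aged libraries, against 81.95 ± 3.66 CPM in young ones, closer together than the replicates. Snrpb, encoding SmB, had 312.1 and 339 CPM in aged against 306.9 and 300.7 CPM in young libraries (0.0996 ± 0.0603, adjusted p = 0.38).

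Per length of annotated exon, levels of the Sm ring genes differed widely although their proteins enter the ring in equal number. That length joins the exons of all annotated transcripts, and it exceeds a single transcript unevenly (2052 against 858 bases in Snrpd1, 3442 against 3036 in Snrpd3). Near-identical sequence elsewhere covers 42% of the Snrpd1 transcript, 33.6% of Snrpe, 29.9% of Snrpg and 25.1% of Snrpd2, but 0% of Snrpb and Snrpd3. The part of both in the order below was not tested. Snrpb stood at 164.8 ± 9.64 CPM per kb in aged and 153.7 ± 2.23 CPM per kb in young libraries (SD, n = 2 per group). Snrpe, Snrpg, Snrpd3 and Snrpd1 formed a middle group, at 35.2 ± 1.11, 26.03 ± 0.623, 23.53 ± 0.66 and 22.2 ± 0.82 CPM per kb in aged libraries. In young libraries the same 4 genes stood at 41.45 ± 2.87, 37.55 ± 3.44, 23.81 ± 1.06 and 24.63 ± 1.33 CPM per kb. In young libraries Snrpd1 and Snrpd3 overlapped, as did Snrpe and Snrpg, while in aged libraries no neighbours in this order overlapped. Snrpd2 followed at 10.04 ± 0.405 in aged against 11.3 ± 0.938 CPM per kb in young libraries. Lowest was Snrpf, encoding SmF, at 1.967 ± 0.363 in aged against 1.765 ± 1.26 CPM per kb in young libraries. It held 48 and 32 counts in aged and 79 and 15 counts in young libraries (log2 change 0.09 ± 0.478, edgeR adjusted p = 0.938). An opposite-strand gene, Ccdc38, shares 65.9% of the exonic bases of Snrpf, and a copy elsewhere covers 30.0% of its transcript. The part of overlap and copies in the low Snrpf count was not tested.

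**Figure D4:**
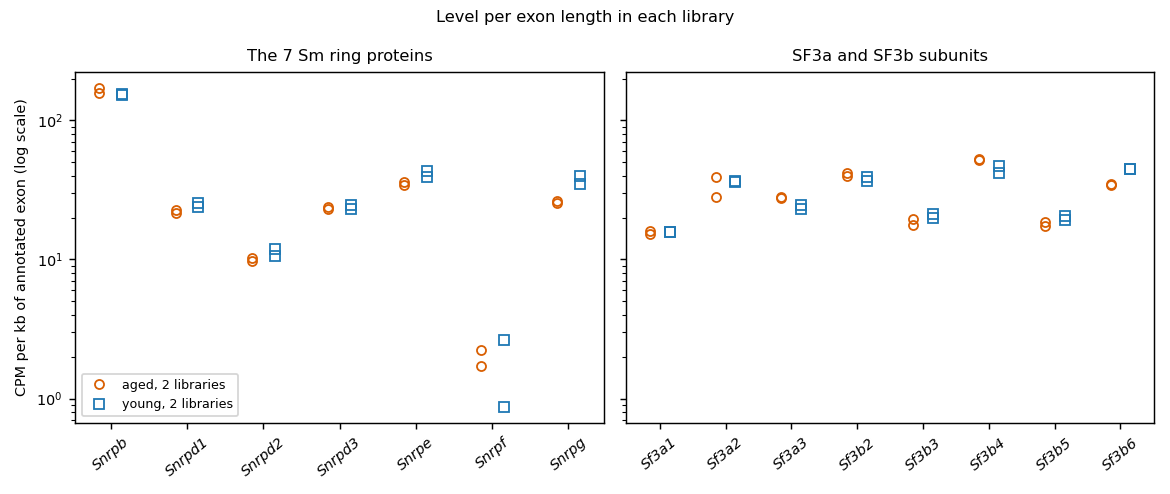
Level per exon length (CPM per kb of annotated exon, log scale) of the 7 Sm ring genes and of the tested SF3a and SF3b genes in each aged (circles) and young (squares) library. Snrpb lies near 160 CPM per kb and Snrpf between 0.874 and 2.66, while the SF3 subunits span 15.4 to 52.5; Sf3b1 was left out of the members and is not shown.

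Proteins particular to the U1 and U2 snRNPs did not pass. Of these, Snrpc (U1-C) was lower in both aged libraries, at 69.11 and 68.88 CPM in those against 75.43 and 75.11 CPM in young ones (-0.13 ± 0.0732, edgeR adjusted p = 0.361). Snrpa1, the U2 leucine-rich repeat protein, was higher in both, at 35.57 and 34.28 in aged against 33.55 and 28.05 CPM in young libraries (0.18 ± 0.109, adjusted p = 0.392). Snrpa (U1-A) gave -0.06 ± 0.0771 and Snrpb2 (U2-B″) -0.05 ± 0.0868, with adjusted p of 0.711 and 0.79. At an unadjusted p under 0.05 the count was also 0 among these 4 genes, and neither DESeq2 nor limma-voom called any of them. Snrpn, which encodes the SmN protein that takes the place of SmB in brain, had 0 counts in all 4 libraries. For counting error alone that allows up to 0.120 and 0.138 CPM in aged and 0.0868 and 0.151 CPM in young libraries. Snrpn shares 27.3% of its exonic bases with Gm38393 on the same strand, and the part of this overlap in the 0 counts was not tested.

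In the SF3 complexes, Sf3b6 fell. Its product is a subunit of SF3b, and the gene lies on chromosome 12, 4817544 to 4827659. Levels were 98.82 and 100.4 CPM in aged libraries, against 128.6 and 127.5 CPM in young ones. The gap between the ages was many times that within them, and the log2 change was -0.36 ± 0.0653 (edgeR adjusted p = 0.0106). No other locus matched its transcript at the identity used here. Of the other subunits, Sf3b4, which binds RNA upstream of the branch point, had 111.7 and 113.6 CPM in aged against 90.97 and 101.9 CPM in young libraries (0.23 ± 0.0758, adjusted p = 0.116). Near-identical sequence at 1 other locus covers 66.6% of the Sf3b4 transcript, so its counts are uncertain, by a share that was not tested. Sf3a3 had 78.28 and 76.61 in aged against 64.69 and 68.78 CPM in young libraries (0.22 ± 0.0761, adjusted p = 0.134). These 2 subunits were thus higher in both aged libraries, and neither passed. Sf3b2 and Sf3b3, large SF3b subunits, gave 0.11 ± 0.0614 (0.34) and -0.13 ± 0.0683 (0.315). Sf3b5, a small SF3b subunit, gave -0.14 ± 0.0782 (0.341), and Sf3a1 was nearly level at -0.01 ± 0.0687 (0.946). Of the SF3 genes, Sf3a2 varied most within an age, with 74.73 and 104 CPM in the aged libraries on either side of 95.2 and 97.38 CPM in the young ones. Without aged replicate 2 it passed as lower in aged monocytes (-0.37, adjusted p = 0.0332), and without aged replicate 1 its sign turned (0.11, adjusted p = 0.51).

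Hnrnpa3 was the hnRNP gene that changed (chromosome 2, 75659261 to 75669407). It stood at 97.07 and 90.83 CPM in aged libraries, against 117 and 114.8 CPM in young ones, without overlap. The log2 change was -0.30 ± 0.0699 (edgeR adjusted p = 0.0329). Near-identical sequence at 29 other loci, 27 of them annotated pseudogenes, covered 28.9% of its transcript. The 2 of these loci listed in the tables held 5252 and 3993 counts in aged libraries, against 5516 and 3410 in young ones. Those are totals of whole loci, and how much of them comes from the shared sequence was not tested. Hnrnpa3 itself held 2434 and 1974 counts in aged and 4041 and 2288 counts in young libraries, and its counts are uncertain. Its relative Hnrnpa1, a well studied splicing repressor, had 73.66 and 81.63 CPM in aged against 87.59 and 91.26 CPM in young libraries (-0.20 ± 0.0786, adjusted p = 0.168), with copies over 58.5% of the transcript. Hnrnpa0 had the same sign with overlapping groups, at 23.01 and 28.8 in aged against 27.21 and 38.78 CPM in young libraries (-0.34 ± 0.165, adjusted p = 0.27). Hnrnpa2b1, of the same branch, gave -0.06 ± 0.0524 (adjusted p = 0.529).

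Other hnRNP genes gave values of both signs, none past the threshold. Hnrnpul1, a nuclear protein related to Hnrnpu, came nearest, at 182.1 and 212.9 CPM in aged and 234.7 and 239.7 CPM in young libraries (-0.26 ± 0.0754, edgeR adjusted p = 0.0687). Its paralog Hnrnpul2 gave -0.22 ± 0.0903 (0.188). Hnrnpl, which binds CA repeats, differed between the aged libraries, at 252.3 and 318.7 CPM against 340.3 and 331.3 CPM in young ones (-0.23 ± 0.0921, 0.175). Without aged replicate 2, Hnrnpl and Hnrnpul1 passed (adjusted p = 0.00414 and 0.00868). The AU-rich element binding pair Hnrnpdl and Hnrnpd gave -0.28 ± 0.0944 (0.115) and -0.0897 ± 0.063 (0.456). Hnrnph1, a G-run binding protein, gave -0.16 ± 0.0829 (0.288), while its X-linked paralog Hnrnph2 gave 0.14 ± 0.0647 (0.244). Thus the H paralogs differed in sign, each without overlap between the ages and without passing.

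Hnrnpk binds cytosine-rich RNA, and Hnrnpu is a scaffold protein of nuclear chromatin. Hnrnpk had 1055 and 993.1 CPM in aged against 967.3 and 1006 CPM in young libraries, with overlap (0.05 ± 0.0543, edgeR adjusted p = 0.618). Hnrnpu had 975.6 and 911.4 CPM in aged against 872 and 856.5 CPM in young libraries, without overlap (0.13 ± 0.0544, adjusted p = 0.216). With offsets for GC content and length, an alternative chosen after seeing the data, Hnrnpu passed (0.26, adjusted p = 0.0114). Of the remaining members, Hnrnpm gave 0.12 ± 0.0632 (0.325) and Hnrnpll, known from lymphocytes for regulating Ptprc splicing, 0.0948 ± 0.0675 (0.464). Hnrnpf, Hnrnpc, Hnrnph3, Hnrnpab and Hnrnpr had log2 changes between -0.04 and 0.05, each with overlapping groups.

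The 6 changes depended on single libraries to different degrees. Snrpg, Sf3b6 and Srsf11 passed with any library left out except young replicate 1, the deepest. Srsf4, Srsf9 and Hnrnpa3 passed only without aged replicate 1. Without young replicate 1, edgeR called 0 of the 48 members, although 11 had an unadjusted p under 0.05, and 1.6% of all genes passed. Shares of all genes were 8.45% without aged replicate 1 (7 members called), 5.15% without aged replicate 2 (6) and 3.7% without young replicate 2 (3). The other tools were not run on 3 libraries. Log2 changes without young replicate 1 were 0.33 for Srsf11 (adjusted p = 0.153), 0.28 for Srsf4 (0.268), 0.20 for Srsf9 (0.333), -0.43 for Snrpg (0.109), -0.35 for Sf3b6 (0.0982) and -0.29 for Hnrnpa3 (0.23). On all 4 libraries DESeq2 and limma-voom called the same 6 members, as did other scalings and the filter at 5 CPM. All-gene shares were 5.67% in DESeq2, 6.72% in limma-voom, 5.81% with RLE scaling, 5.27% with library size alone, 5.52% with upper quartile scaling and 7.27% with the filter. With offsets for GC content and length, Srsf4 (adjusted p = 0.109) and Srsf9 (0.0852) did not pass, while 7.02% of all genes did.

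**Figure D5:**
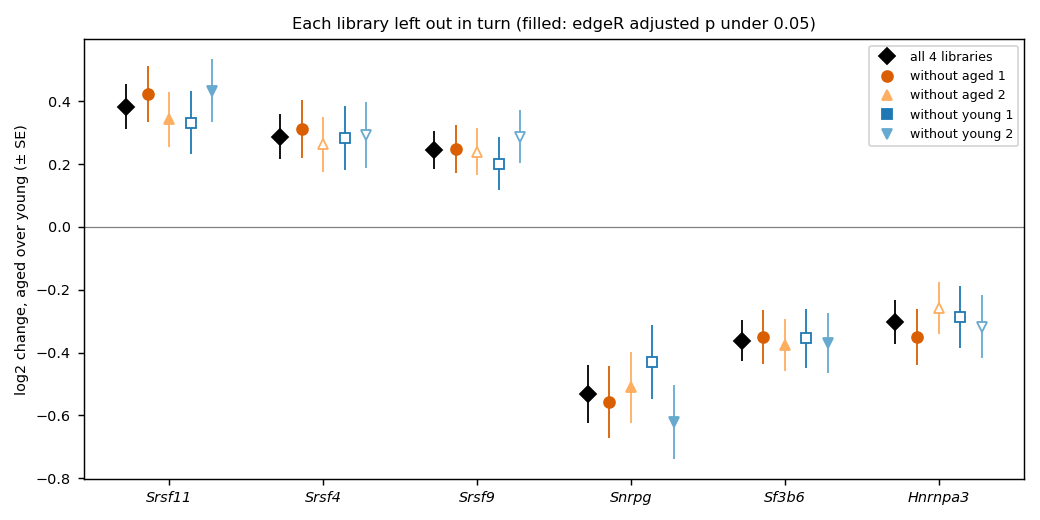
Log2 change, aged over young, with its standard error for the 6 members that passed, in all 4 libraries and with each library left out; filled symbols have an edgeR adjusted p under 0.05. The sign of each gene is the same in all 5 fits, and the fit without young replicate 1 has no filled symbol.

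Promoter sequence was read for the members that passed, since the 3 SR genes rose together. RefSeq start sites (GRCm38.p6) gave 150 bases upstream of the first annotated start of 5 genes, all but Snrpg, with matches to the searched motifs in capitals. The motifs, searched on both strands, were the CCAAT box by those letters, the GC box as GGGCGG, the E-box as CACGTG, the cAMP response element as TGACGTCA, the AP-1 site as TGANTCA, the ETS site as CCGGAAG and the TATA box as TATAAA.
Srsf11 promoter (chr3:158036640-158036789, minus strand): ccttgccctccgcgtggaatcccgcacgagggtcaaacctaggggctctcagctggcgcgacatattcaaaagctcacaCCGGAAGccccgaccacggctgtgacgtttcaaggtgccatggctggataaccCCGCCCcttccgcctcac
Srsf4 promoter (chr4:131873467-131873616, plus strand): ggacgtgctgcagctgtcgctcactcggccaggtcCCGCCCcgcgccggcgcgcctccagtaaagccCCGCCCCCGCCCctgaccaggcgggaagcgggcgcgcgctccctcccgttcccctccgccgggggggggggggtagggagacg
Srsf9 promoter (chr5:115327027-115327176, plus strand): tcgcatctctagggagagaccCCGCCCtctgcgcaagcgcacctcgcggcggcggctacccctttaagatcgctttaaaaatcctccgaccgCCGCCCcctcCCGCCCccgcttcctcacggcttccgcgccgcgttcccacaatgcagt
Sf3b6 promoter (chr12:4817394-4817543, plus strand): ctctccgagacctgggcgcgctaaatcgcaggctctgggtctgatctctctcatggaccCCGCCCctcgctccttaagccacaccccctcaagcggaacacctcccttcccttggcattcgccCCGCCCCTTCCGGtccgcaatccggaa
Hnrnpa3 promoter (chr2:75659109-75659258, plus strand): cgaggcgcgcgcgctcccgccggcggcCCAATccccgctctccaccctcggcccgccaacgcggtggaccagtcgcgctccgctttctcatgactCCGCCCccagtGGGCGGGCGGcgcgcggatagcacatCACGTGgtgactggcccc

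All 5 windows held a GC box, with 1 match in Srsf11, 2 in Sf3b6 and 3 each in Srsf4, Srsf9 and Hnrnpa3. The ETS letters occurred once each in Srsf11 and Sf3b6. Hnrnpa3 alone of the 5 held a CCAAT box and an E-box, and none held the cAMP response, AP-1 or TATA letters. In the 150 bases before the RefSeq start, a GC box occurred in 22 of 44 matched members (50%), in 53% of 9291 tested genes and in 29% of all 27025 promoters listed. The ETS letters occurred in 11 members (25%), in 12.1% of tested genes and in 5.68% of all promoters. A CCAAT box occurred in 38.6% of members, 29.2% of tested genes and 25.3% of all promoters, and an E-box in 6.82%, 6.24% and 4.3%. The cAMP response element stood in 4.55%, 2.52% and 1.44%, the AP-1 letters in 2.27%, 2.64% and 4.27%, and the TATA letters in 4.55%, 3.13% and 8.08%. Of the 5 genes read, the 3 that rose and the 2 that fell all held a GC box, which was no more frequent in members than in tested genes, and Snrpg was not read.

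Annotated features of the members' transcripts were also counted, and they differed between families. In GENCODE M21, 22 of the 48 tested members (45.8%) have an annotated transcript subject to nonsense-mediated decay, against 29.5% of 11298 tested protein-coding genes. By family this held for 8 of 9 SR genes (88.9%), 10 of 20 Hnrnp genes (50%), 4 of 11 Snrp genes and 0 of 8 Sf3 genes. Srsf11 has 3 such transcripts, Srsf4 has 2 and Srsf9 has 1, while Snrpg, Sf3b6 and Hnrnpa3 have 0. Srsf1 and Srsf3, the SR genes with a log2 change below 0, have 2 each. The SR gene with 0 is Srsf10, whose change was above 0. Any relation of these transcripts to the changes was not tested. A retained intron transcript is annotated for 75% of tested members and 59.9% of tested protein-coding genes. The median number of annotated transcripts was 8 in SR and in Hnrnp genes, 5 in Snrp genes, 4 in Sf3 genes and 5 in tested protein-coding genes. The part of transcript number in these shares was not tested. Log2 change and exon length were weakly related across the 48 members, with a Pearson r of 0.081, and across 11917 tested genes with a length, with an r of -0.083; genes within these libraries are not independent, and no test was made. Near-identical sequence of at least 100 bases elsewhere in the annotation was found for 21 of the 50 members. The part of the transcript covered ranged from 1.7% in Hnrnpd to 66.6% in Sf3b4, so not every match is a copy of the gene. Next after Sf3b4 came Snrpa (62.6%), Hnrnpf (59.5%), Hnrnpa1 (58.5%) and Srsf5 (51.7%). Of the members, 18 share exonic bases with an opposite-strand gene. On the same strand the largest shares were 27.3% of Snrpn with Gm38393 and 14.7% of Hnrnpm with March2.

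Other parts of the splicing machinery were read from 7 lists. In a list of 9 genes for SR protein kinases and nuclear import, Tnpo1 and Clk1 fell and none rose. Tnpo1, an importin whose cargo includes hnRNPs of the A family, had 78.28 and 88.49 CPM in aged libraries, against 116.2 and 129.3 CPM in young ones (log2 change -0.56 ± 0.0846, edgeR adjusted p = 0.00429), and it passed with each library left out. Tnpo3, the importin of SR proteins, named here after its value was seen, gave -0.0222 ± 0.0844 (adjusted p = 0.915). Clk1, a kinase that phosphorylates SR proteins, had 41.83 and 36.67 in aged against 53.58 and 48.72 CPM in young libraries (-0.38 ± 0.0982, adjusted p = 0.049). It passed only without aged replicate 1 when a library was left out, and it did not pass with scaling by library size alone (0.0656) or by the upper quartile (0.0599), or with the offsets (0.0756). The ages did not overlap for Tnpo1 or Clk1. The summed level of the 9 genes was 455.3 and 454.1 CPM in aged and 483.6 and 507.8 CPM in young libraries.

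Among 39 tested genes for splice site recognition and SR-like regulators, Rbm39, an SR-related coactivator of splicing, rose. It had 264.6 and 274.3 CPM in aged and 200.8 and 226.2 CPM in young libraries, without overlap (0.34 ± 0.0683, edgeR adjusted p = 0.0183). Without young replicate 1 it did not pass (adjusted p = 0.196). The median log2 change of this list was -0.0095.

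None of the other 5 lists had a gene past the threshold in edgeR. They were 7 Snrnp genes (1 at an unadjusted p under 0.05, median log2 change 0.05), 8 LSm ring genes (2, -0.11), 13 tested genes of Sm ring assembly (0, 0.0086), 26 genes of Prp proteins and spliceosomal helicases (7, 0.07) and 15 genes of nonsense-mediated decay and the exon junction complex (3, 0.03). DESeq2 called 0 in each of these lists, and limma-voom called 1 of the Snrnp genes and 0 of the others. The smallest p values in them were those of Snrnp200, the U5 helicase, at 158.3 and 167.8 CPM in aged against 190.9 and 192.3 CPM in young libraries (-0.23 ± 0.0614, adjusted p = 0.0535), Lsm3 (-0.34 ± 0.101, 0.0814), Gemin2 of the SMN complex (-0.31 ± 0.142, 0.238), Prpf39 of the U1 snRNP (0.39 ± 0.109, 0.0633) and Magoh of the exon junction complex (-0.36 ± 0.0977, 0.0595). Of the 8 LSm genes 7 had a log2 change below 0, and the groups did not overlap in those 7, against 51.6% of all genes tested that did not overlap in either direction (3093 of 12035 lower). Their summed level was 333.8 and 337.7 CPM in aged and 361.1 and 365.1 CPM in young libraries.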

How the data were processed

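Each library has its own table of whole-number counts, deposited by the authors without normalization and keyed by gene symbol. Poly(A) RNA was captured on oligo-dT and sequenced from stranded dUTP libraries, per the labels' protocols. Tools listed in the submitters' processing notes, with no role stated, are STAR 2.5.3, HTSeq, cutadapt and DESeq2, on mm10. The annotation, the strand setting and the handling of multiply mapped reads were not given in the sources used here. Genes were kept by filterByExpr (minimum count 10, minimum total 15), scaled with TMM factors and tested two-sided with edgeR 4.0.16 in R 4.3.3, adjusted by Benjamini-Hochberg over all genes at 0.05. CPM use the TMM-scaled library sizes; standard errors are the log2 change divided by the square root of F. Alternatives were other scalings and filters, DESeq2 1.42.0, limma-voom (limma 3.58.1), a replicate block, each library left out, and, added after seeing the data, GC and length offsets (natural splines, 5 degrees of freedom). GENCODE M21 (same assembly as mm10) gave coordinates, lengths and overlaps for 30477 of 31017 symbols, and blastn 2.17.0 the near-identical copies. Replicates of a group differed beyond sampling noise, with a chi-square per degree of freedom of 10.3 in aged and 13.5 in young libraries. Floors cover counting error only, while the standard errors include the spread between libraries as estimated in the fit. Values are given for each member past the threshold, the 2 of each family with the highest CPM, those nearest the threshold on its other side and those below the filter, with the rest accounted for; from each other list, up to 4 genes per direction past the threshold were named, or the one with the smallest p, except for a result that is not reported here. The members, lists and tests were chosen with earlier results of these data known. The procedure was run on simulated data, but its recovery of changes as small as those of the members is not given here.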

Additional observations from a re-analysis of the deposited data

How the results depend on the processing

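The count of changed members was 6 under RLE, upper quartile and library size scaling, with genes of at least 5 CPM alone, in DESeq2 and in limma-voom, and 5 with GC and length offsets. With no low-count filter it was 10 (6 lower), of 1399 genes in all (8.08% of those tested; 606 higher, 793 lower). The labels give aged and young libraries the same replicate numbers without saying that a number pairs them, and deviations of same-numbered libraries correlated at 0.094 over all genes and at 0.548 over the 48 tested members. With the replicate number as a block, 16 members changed (7 higher, 9 lower), of 1817 genes in all (15.1%; 801 and 1016). By family, the block gave 5 SR, 6 Hnrnp, 2 Snrp and 3 Sf3 genes, no filter 4 Hnrnp genes, and the offsets 1 SR and 2 Hnrnp genes. Of the other lists, the Snrnp genes had 1 call with no filter, with genes of at least 5 CPM, in limma-voom and under the block. LSm genes had 1 with no filter, block or offsets. Prp genes and helicases had 2, 4 and 2 with no filter, block and offsets, SR-like regulators 5, 9 and 5, and the decay genes 1, 2 and 1. The SR kinase list had 1 with library size or upper quartile scaling.

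With each library left out, between 197 and 1040 genes changed (116 to 452 higher, 81 to 588 lower), and between 0 and 7 members (0 to 4 higher, 0 to 5 lower). The range was 0 to 4 in SR, 0 to 2 in Hnrnp, 0 to 1 in Snrp and 0 to 2 in Sf3 genes. In the other lists it was 0 to 0 for Snrnp genes and Sm ring assembly, 0 to 1 for LSm, Prp and decay genes, 0 to 6 for SR-like regulators and 1 to 2 for SR kinases.

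Signs turned in members that did not pass. With offsets the log2 change was -0.0203 for Hnrnpab, -0.0051 for Hnrnpf and 0.0147 for Srsf3, and with upper quartile scaling 0.0018 for Sf3a1. With each library left out it ranged from -0.0502 to 0.1053 for Hnrnpab, -0.0049 to 0.0979 for Hnrnph3, -0.0782 to 0.1257 for Hnrnpr, -0.0377 to 0.0126 for Sf3a1, -0.3671 to 0.1125 for Sf3a2, -0.1273 to 0.0074 for Snrpa, -0.0605 to 0.0276 for Snrpd3 and -0.429 to 1.1693 for Snrpf. The cause was not tested. Where 1 library of an age was left, it was assumed to vary like the other age. Counts were low for Snrpf, Srsf12 and Snrpn, each under 100 in every library, and the reason for this was not tested.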
